A study of Mus musculus with 8 samples.

Results

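The 10 genes Dusp1, Dusp3, Dusp4, Dusp5, Dusp6, Dusp14, Spry1, Spry2, Spry4 and Spred1 encode dual-specificity phosphatases and Sprouty-family proteins that act as brakes on mitogen-activated protein kinase (MAPK) signalling. They were taken by name: every non-control probe whose gene symbol was 1 of the 10 was included, which gave 13 probes for 10 of the 24725 named genes on the array. Expression was compared between the striatum of R6/2 mice and that of wild-type (WT) mice, all male and 4 weeks old, with 4 arrays per genotype. The R6/2 transgene, which models Huntington's disease, holds exon 1 of the human huntingtin gene with a long CAG repeat, and a fragment of the human huntingtin promoter drives it, so its expression is not restricted to the striatum. WT mice lack this transgene, and the labels give no other allele or treatment and no strain for either genotype. Samples are labelled replicates without a statement that each came from its own animal, so the p-values rest on a sample-to-sample spread that may in part be technical.

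MAPK cascades pass signals from receptors at the membrane to the kinases ERK, JNK and p38, with Ras and Raf upstream of ERK. Dual-specificity phosphatases remove the phosphates from both the threonine and the tyrosine that activate a MAPK. Several of them, like the Sprouty proteins, are transcribed in response to ERK activity itself, so that their RNA forms part of a negative feedback loop. In striatal neurons, dopamine and glutamate receptors activate ERK, and its target genes follow neuronal activity.

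None of the members passed the test (limma, adjusted p under 0.05 over all tested probes), and the phosphatase RNAs Dusp14, Dusp4 and Dusp6 had the lowest values in R6/2 relative to WT. The differences, on the log2 scale, were -0.67 for Dusp14, -0.51 for Dusp4 and -0.48 for Dusp6, each with a 95% interval below 0. Spry2, Spred1 and Dusp1 followed at -0.34, -0.31 and -0.30, the last with an interval that included 0, while Spry1, Dusp3 and Spry4 lay at -0.05, 0.06 and 0.18. Of the 9 genes tested, 7 had a negative difference and 2 a positive one, against 8262 and 9637 of all 17899 tested genes.

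Across the array, limma called 347 of 17899 genes, which is 1.94%, and 262 of these were lower in R6/2 (1.46%). Among probes, the share called was 1.51%. A fit with replicate blocks called 185 genes, of which 136 were among the 347. Of the 12 tested member probes and the 9 tested member genes, 0 were called. At an unadjusted p under 0.05 in limma the count was 5 of 9 (Dusp4, Dusp14, Dusp6, Spred1 and Spry2), all lower in R6/2. Over all tested genes 18.9% passed that unadjusted threshold, and 9.92% did so in the lower direction. The median difference of the 9 members was -0.31, against 0.02 over all tested genes. The members were chosen with earlier results of these data known, so these shares and medians are descriptions and no test. In the authors' deposited table, 0 of the 13 member probes had an adjusted p under 0.05, and 4 had an unadjusted p under 0.05, against 0.259% and 12.2% of all probes in that table.

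Levels below are log2 scaled signals: the log2 of the processed spot signal minus the log2 of that array's 75th percentile, so that 0 marks the 75th percentile. Levels of different probes are not comparable with each other, since probes bind with different efficiency. The share of probes well above background was 61.5% to 67.7% per array, the 75th percentile was 434 to 486 intensity units, and no spot was saturated. Pearson's r between arrays within a genotype was 0.983 to 0.993 over probes. The number of arrays limits the precision. All arrays lay on 1 slide and came from 1 scan, with the R6/2 arrays in one row of the slide and the WT arrays in the other, so slide row and genotype cannot be told apart. WT 3 stood apart from the other arrays: limma's array weights gave it 0.35, against 0.76 to 1.83 for the other 7 arrays.

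The probe sequences below are those of the pair of genes whose genotypes did not overlap, printed over bases 1 to 30 of each 60-base probe. Neither probe shares 20 bases with a probe of another gene.
Dusp4: aataacggcggtttccgctgccagagaaga
Dusp14: cgtgcgttgcctgtgacgttttttaaaact
On build mm9, as the scanner files give it, the Dusp4 probe lies at chr8:35882045-35882104 on the plus strand and the Dusp14 probe at chr11:83861916-83861975 on the minus strand. Their placement in exons or untranslated regions was not analysed here.

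Among the phosphatases of the nucleus, Dusp4 (MKP-2) is an inducible enzyme that acts on ERK and JNK. Its probe read -3.37, -3.24, -3.56 and -3.31 on R6/2 arrays 1 to 4, against -2.89, -2.67, -3.07 and -2.80 on WT arrays 1 to 4. All 4 R6/2 arrays lay below all 4 WT arrays, with a gap of 0.17 between the highest R6/2 and the lowest WT array. Over all tested genes, 6.75% had every R6/2 array below every WT array, and 14.4% did not overlap in either direction. The means were -3.37 ± 0.14 in R6/2 and -2.86 ± 0.17 in WT (SD, n = 4 each), a difference of -0.51 ± 0.11 (SE) with a 95% interval of -0.76 to -0.26, and the limma adjusted p was 0.0648. The R6/2 level was 0.701 of the WT level. By p, Dusp4 ranked 506 among the 17899 tested genes. The signal was dim, 36.7 to 49.7 units in R6/2 and 51.7 to 70.2 in WT, but well above background on all 8 arrays. With the replicate number as a block, Dusp4 passed the test (limma adjusted p = 0.0483), and it passed too without WT 3, where the difference was -0.58 (limma adjusted p = 0.0478). With the normexp background correction, which adds 50 units to every signal, the difference was -0.24 (limma adjusted p = 0.0705).

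Dusp1 (MKP-1) is an immediate early gene whose product inactivates p38, JNK and ERK. Its probe, listed at chr17:26642526-26642536 on mm9 (a span shorter than the probe), read 0.20, 0.58, 0.34 and -0.29 on R6/2 arrays 1 to 4, against 0.46, 0.55, 1.13 and -0.13 on WT arrays 1 to 4. The lowest array of each genotype was number 4, the highest of all was WT 3, and the genotypes overlapped. The spread within a genotype was the widest of the 9 tested members, with an SD of 0.37 in R6/2 and 0.52 in WT. The difference was -0.30 ± 0.28 (95% interval -0.93 to 0.34, limma adjusted p = 0.637). Single arrays moved it: it was -0.09 without WT 3, -0.13 without R6/2 4 and -0.51 without WT 4. With array weights the difference of Dusp1 was -0.01 (limma adjusted p = 0.986).

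Dusp5 encodes a nuclear phosphatase selective for ERK. Its single probe (mm9 chr19:53615682-53615741) was not well above background on any of the 8 arrays. The signals were 9.85, 11.6, 9.77 and 8.34 units on R6/2 arrays 1 to 4, against 11.9, 10.95, 13.4 and 11.6 on WT arrays 1 to 4. It was therefore not tested, and no fold is given. All other members were well above background on every array.

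Dusp6 (MKP-3) encodes the cytoplasmic phosphatase selective for ERK and is a standard transcriptional readout of FGF and ERK signalling. Its probe (mm9 chr10:98729985-98730044) read 2.93, 3.17, 2.95 and 2.46 on R6/2 arrays 1 to 4, against 3.27, 3.36, 3.64 and 3.16 on WT arrays 1 to 4. R6/2 4 was the lowest array and WT 3 the highest, and the genotypes overlapped by only 0.02, between R6/2 2 and WT 4. The means were 2.88 ± 0.30 in R6/2 and 3.36 ± 0.21 in WT (SD, n = 4 each). The difference of -0.48 ± 0.17 had a 95% interval of -0.86 to -0.10 and a limma adjusted p of 0.196.

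Dusp14 and Dusp3 encode small atypical dual-specificity phosphatases, which lack the MAPK-binding domain of the enzymes above. Dusp14 (MKP-6) read 1.56, 1.75, 1.22 and 1.48 on R6/2 arrays 1 to 4, against 2.02, 2.37, 2.36 and 1.91 on WT arrays 1 to 4. The 4 R6/2 arrays lay below the 4 WT arrays, with a gap of 0.16. The means were 1.5 ± 0.22 in R6/2 and 2.17 ± 0.24 in WT (SD, n = 4 each). Their difference, -0.67 ± 0.15 with a 95% interval of -1.01 to -0.32, was the largest in size among the members, with a limma adjusted p of 0.0732 and a rank of 601 by p. The R6/2 level was 0.631 of the WT level. With the normexp background correction the difference was -0.67 as well, and Dusp14 passed the test (limma adjusted p = 0.0338).

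Dusp3 (VHR), a phosphatase of ERK and JNK, was measured by 2 probes. The brighter one (mm9 chr11:101832460-101832519) read 4.93, 4.99, 4.92 and 4.96 on R6/2 arrays 1 to 4, against 4.90, 4.88, 4.79 and 5.01 on WT arrays 1 to 4. The genotypes overlapped, and the R6/2 arrays had the narrowest spread of the tested members (SD 0.03). The difference was 0.06 ± 0.07 with a 95% interval of -0.10 to 0.21 (limma adjusted p = 0.721). The other probe (mm9 chr11:101835524-101835583) differed by 0.00, with a 95% interval of -0.18 to 0.18.

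**Figure D1:**
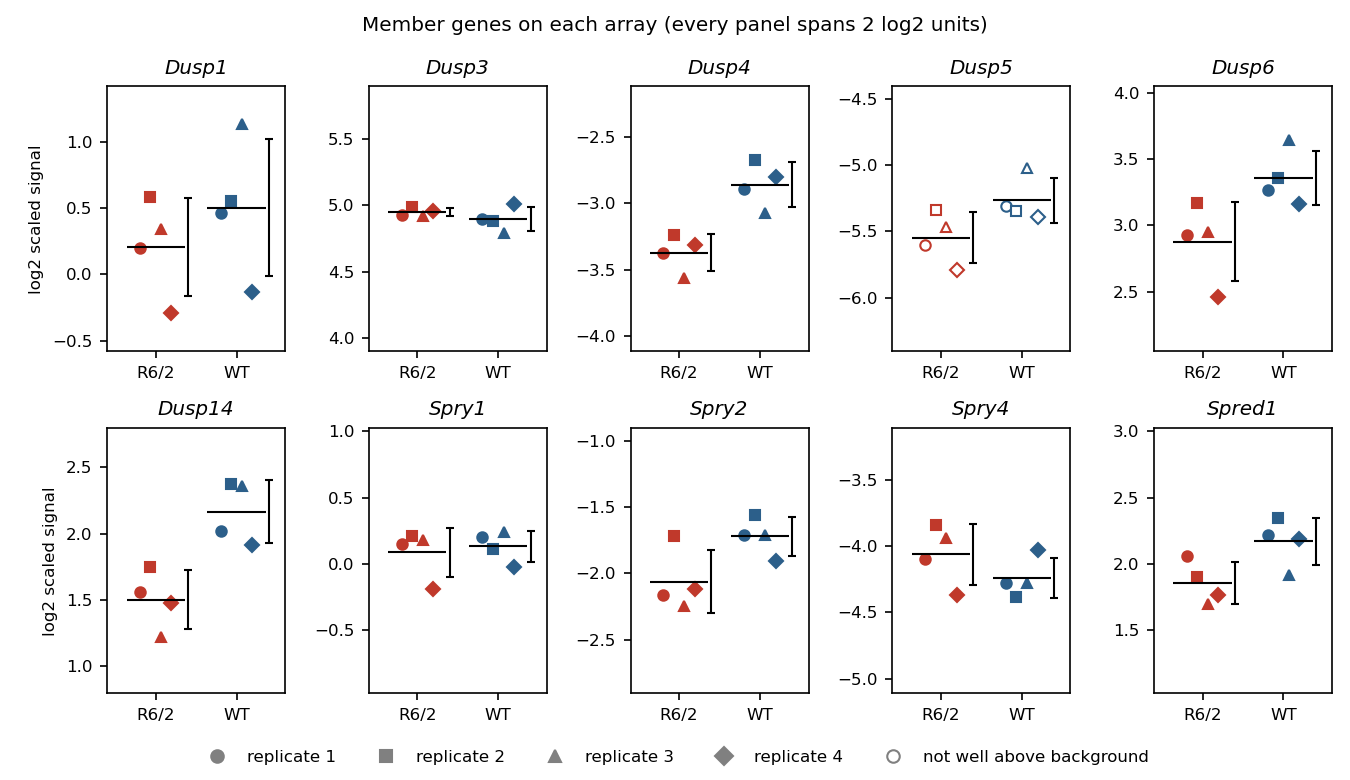
Level of each member gene (log2 scaled signal) on the 4 R6/2 arrays (red, left) and the 4 WT arrays (blue, right), by the brightest tested probe of the gene (for Dusp5, its only probe, not tested). Lines are means, bars are SD (n = 4), marker shapes are replicate numbers and open markers are signals not well above background. The genotypes do not overlap for Dusp4 and Dusp14, and for Dusp1 array WT 3 lies above all others.

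Sprouty proteins bind adaptors and kinases of the Ras and Raf pathway downstream of receptor tyrosine kinases. Spry2 (mm9 chr14:106291845-106291904) read -2.16, -1.72, -2.25 and -2.12 on R6/2 arrays 1 to 4, against -1.71, -1.56, -1.71 and -1.91 on WT arrays 1 to 4. Only R6/2 2 reached into the WT range, and the other 3 R6/2 arrays lay below all WT arrays. The difference was -0.34 ± 0.13 with a 95% interval of -0.64 to -0.04 (limma adjusted p = 0.235).

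Spry1 (mm9 chr3:37543403-37543462) read 0.15, 0.21, 0.18 and -0.19 on R6/2 arrays 1 to 4, against 0.20, 0.11, 0.24 and -0.02 on WT arrays 1 to 4. The genotypes overlapped, and number 4 was again the lowest array of each. The difference was -0.05 ± 0.11 with a 95% interval of -0.30 to 0.21 (limma adjusted p = 0.867), and its sign turned without R6/2 4, to 0.05, and with array weights, to 0.03.

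Spry4 (mm9 chr18:38745923-38745982) read -4.10, -3.84, -3.94 and -4.37 on R6/2 arrays 1 to 4, against -4.28, -4.38, -4.28 and -4.03 on WT arrays 1 to 4. The genotypes overlapped at both ends, and the dim signals, 22.4 to 32.8 units in R6/2 and 21.4 to 29.7 in WT, were above background on all arrays. The difference was 0.18 ± 0.13 with a 95% interval of -0.12 to 0.48 (limma adjusted p = 0.530).

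Spred1 encodes a Sprouty-related protein that brings neurofibromin, an inactivator of Ras, to the membrane. Of its 3 probes, the brightest (mm9 chr2:117005906-117005965) read 2.06, 1.90, 1.70 and 1.77 on R6/2 arrays 1 to 4, against 2.22, 2.35, 1.92 and 2.19 on WT arrays 1 to 4. WT 3 was the lowest WT array, and only R6/2 1 lay above it. The difference was -0.31 ± 0.12 with a 95% interval of -0.58 to -0.05 (limma adjusted p = 0.221). The second probe (mm9 chr2:117004952-117005011) differed by -0.24 ± 0.13 and the third (mm9 chr2:116998491-116998550) by -0.18 ± 0.14, with limma adjusted p of 0.386 and 0.575, so that all 3 probes had the same sign. The third probe was dim, with 43.4 to 54.0 units in R6/2 and 43.2 to 62.6 in WT.

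**Figure D2:**
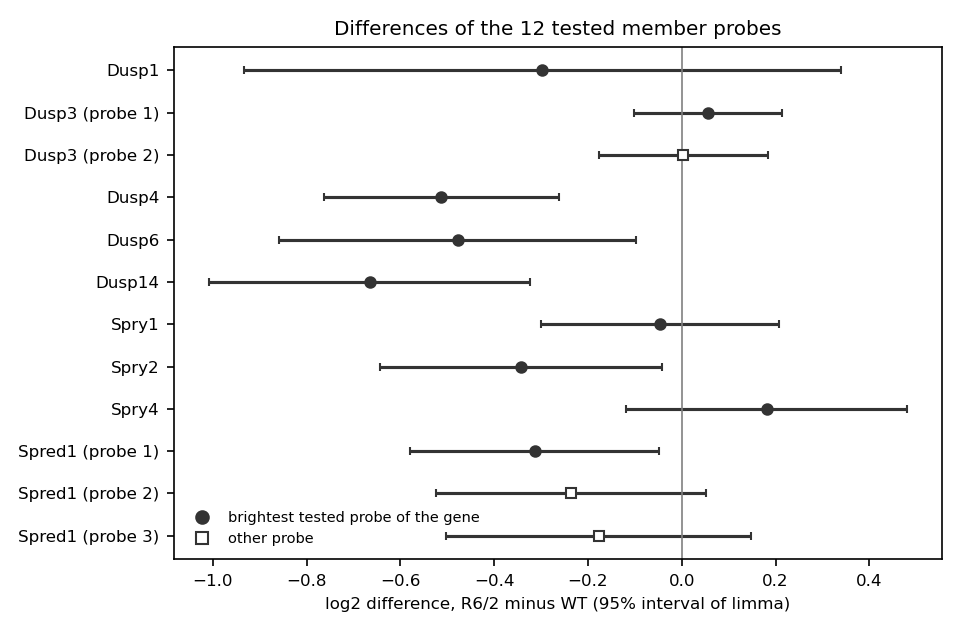
Difference of each of the 12 tested member probes, R6/2 minus WT on the log2 scale, with its 95% interval from limma; filled circles are the brightest tested probe of a gene and open squares its other probes. The intervals of Dusp4, Dusp6, Dusp14, Spry2 and the brightest Spred1 probe lie below 0, and those of the other probes include 0.

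Taken as a mean over the 9 tested members, each centred on its mean over the 8 arrays, R6/2 arrays 1 to 4 stood at -0.11, 0.07, -0.18 and -0.31, against 0.11, 0.20, 0.20 and 0.02 for WT arrays 1 to 4. R6/2 2 lay above WT 4, so the genotypes overlapped. Only Dusp4 and Dusp14 separated all arrays by genotype.

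The members did not vary as one block from array to array. When each array was expressed as its deviation from its genotype mean, Dusp1 and Dusp6 moved together (Pearson r = 0.92 over 8 arrays), as did Dusp6 and Spry1 (r = 0.90) and Dusp1 and Spry1 (r = 0.85). Dusp14 went with Spry2 (r = 0.80) and Dusp4 with Spred1 (r = 0.75), whereas Dusp4 and Dusp1 were at r = -0.41. These are descriptions over arrays that share 1 slide and a scaling, with no test.

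Dusp1 and Dusp6 also followed a list of ERK-induced transcription factors and activity genes, such as the Fos, Egr and Nr4a families, of which 31 of 32 were tested. The mean deviation of that list was 0.00, 0.28, 0.03 and -0.32 on R6/2 arrays 1 to 4 and -0.22, 0.11, 0.44 and -0.34 on WT arrays 1 to 4. WT 3 was the highest array, and number 4 the lowest of each genotype. Over the 8 arrays the deviations of Dusp1 correlated with it at r = 0.95 (Spearman's rho 0.98), and those of Dusp6 at r = 0.92 (rho 0.88). Without WT 3 and WT 4, the arrays farthest from the median, r was 0.90 for Dusp1 and 0.92 for Dusp6 over 6 arrays. Spry1 stood at r = 0.73 and Dusp14 at 0.71, while Spry2 was at 0.53, Spry4 at 0.20, Spred1 at -0.25, Dusp4 at -0.28 and Dusp3 at -0.63. The values of Spry4, Spred1, Dusp4 and Dusp3 rested on WT 3 and WT 4, as r was 0.74, 0.30, 0.28 and 0.22 without them, and the negative sign of the last 3 was lost. How many of all tested genes follow this list as closely was not determined, so these correlations are descriptions with no test.

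**Figure D3:**
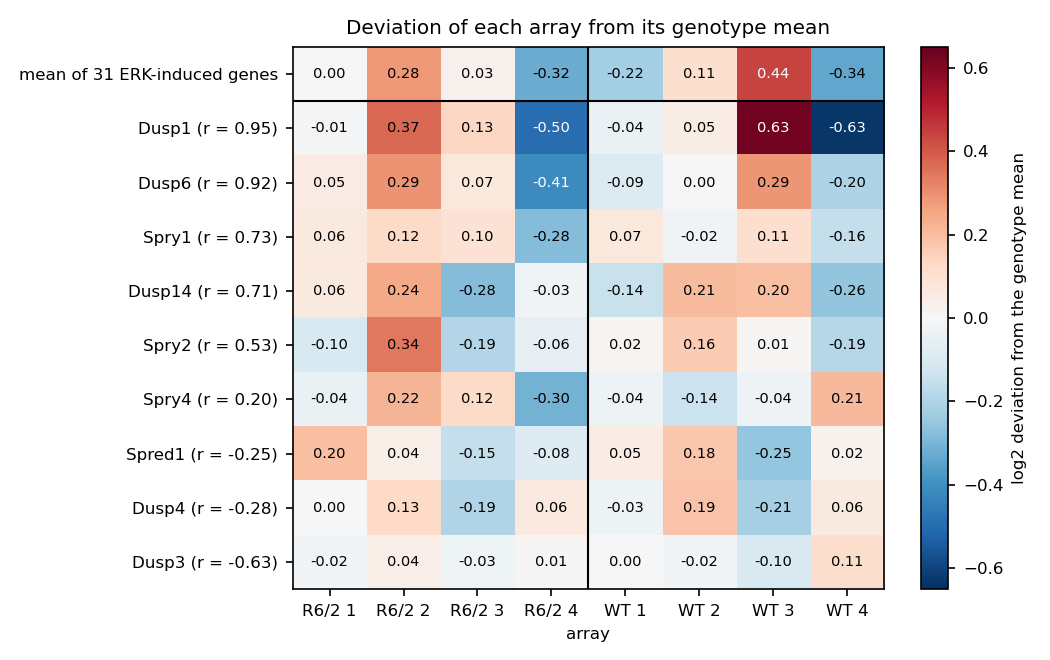
Deviation of each of the 8 arrays from its genotype mean (log2, colour and printed value), for the mean of the 31 tested ERK-induced genes (top row) and for the 9 tested members, ordered by their Pearson r with that mean. R6/2 arrays are left of the line and WT arrays right of it; Dusp1 and Dusp6 are high on R6/2 2 and WT 3 and low on both arrays numbered 4, while Dusp4 and Spred1 are low on WT 3.

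The upstream sequences of Dusp1, Dusp6 and Spry1, the members that moved together most closely, are shown as the 250 bases before each gene's start, 5′ to 3′ on the gene's strand. They come from RefSeq on build GRCm38.p6. An upstream window was available for 8 of the 10 members, and none for Dusp4 and Spry4. Capitals in the Dusp1 sequence mark the letters of the cAMP response element TGACGTCA and of its half-site TGACG.
Dusp1: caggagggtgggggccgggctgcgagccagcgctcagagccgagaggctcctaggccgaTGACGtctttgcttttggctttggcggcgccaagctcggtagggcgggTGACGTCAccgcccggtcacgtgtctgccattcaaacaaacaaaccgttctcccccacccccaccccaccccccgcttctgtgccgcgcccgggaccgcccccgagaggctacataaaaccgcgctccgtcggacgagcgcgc
Dusp6: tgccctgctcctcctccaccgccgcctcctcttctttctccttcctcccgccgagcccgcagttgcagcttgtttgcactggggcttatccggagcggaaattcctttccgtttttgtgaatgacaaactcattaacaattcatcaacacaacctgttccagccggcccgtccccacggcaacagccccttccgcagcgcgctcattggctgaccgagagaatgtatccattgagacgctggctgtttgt
Spry1: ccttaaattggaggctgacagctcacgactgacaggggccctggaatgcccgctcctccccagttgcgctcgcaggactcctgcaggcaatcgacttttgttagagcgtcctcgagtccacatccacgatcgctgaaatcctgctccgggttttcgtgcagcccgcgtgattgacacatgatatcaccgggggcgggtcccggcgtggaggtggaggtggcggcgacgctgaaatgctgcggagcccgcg
The windows are chr17:26508473-26508722 on the minus strand for Dusp1, chr10:99262981-99263230 on the plus strand for Dusp6 and chr3:37639697-37639946 on the plus strand for Spry1. On both strands, the full cAMP response element TGACGTCA was found once in the Dusp1 window, its nearest base 136 bases upstream of the start, and a separate half-site TGACG lay with its nearest base 187 bases upstream. The half-site also lies within the full element. Of 32851 windows of 250 bases, 1.55% held the full element and 17.8% the half-site. The Dusp6 and Spry1 windows held neither of these letters, nor the ETS core CCGGAAG (6.91% of windows), the AP-1 letters TGANTCA (6.75%) or a CArG box (1.47%). In the Dusp5 window a CArG box, the sequence bound by serum response factor, was found 2 times and the half-site 1 time. A match of letters describes the window and shows no binding.

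By the measure of likeness used here, the correlation of deviations over the 8 arrays across 17897 genes, the genes closest to Dusp6 were C030046G05 (r = 0.983), Egr2 (r = 0.981) and H2az2 (r = 0.972). Those closest to Dusp4 were Ly6g6e (r = 0.992), Fmnl1 (r = 0.990) and Napa (r = 0.989), and those closest to Dusp14 were Ddi2 (r = 0.996), Asb10 (r = 0.976) and Hexim1 (r = 0.975). An r over 0.9 was reached by 317 genes for Dusp4 and 14 for Dusp14, and the count for Dusp6 lay between these. The genes named for each member, Egr2 for Dusp6 among them, are thus the closest of a longer list.

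The other genes of the pathway had few calls. Of the other MAPK phosphatases, 0 of 5 tested genes passed in limma, with 3 at an unadjusted p under 0.05 (2 lower and 1 higher) and a median difference of -0.02, which was -0.12 without WT 3. Dusp16 (MKP-7), a phosphatase of JNK and p38, differed by 0.30 ± 0.06 with a limma adjusted p of 0.0637, and all its R6/2 arrays lay above the WT arrays. Dusp2 (PAC-1), an inducible nuclear phosphatase, differed by -0.64 ± 0.22 with a limma adjusted p of 0.205.

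Among the other atypical dual-specificity phosphatases, 1 of 16 tested genes passed. Dusp18 averaged -2.20 ± 0.01 in R6/2 and -1.78 ± 0.09 in WT (SD, n = 4 each), and it fell by 0.42 ± 0.07 in R6/2 with a limma adjusted p of 0.03. Its other probe was called too, with a difference of -0.54. With the replicate number as a block the adjusted p of Dusp18 was 0.0610 in limma, and over the 16 alternatives, the authors' own test included, the adjusted p ranged from 0.0161 to 0.101. Leaving out 1 array ended the call of Dusp18, except for WT 3. Of the other Sprouty, Spred and FGF feedback genes, 0 of 15 passed in limma and 1 had an unadjusted p under 0.05. Flrt1, which binds FGF receptors, differed by -0.29 ± 0.08 (limma adjusted p = 0.113), and the docking protein gene Dok4 by -0.31 ± 0.14 (limma adjusted p = 0.314).

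In the ERK cascade itself, 2 of 43 tested genes passed, both lower in R6/2, and the list's median was -0.05. Without WT 3 the count called was 3 and the median -0.07. Ptpn7, a tyrosine phosphatase that binds and inactivates ERK, averaged -2.60 ± 0.22 in R6/2 and -0.87 ± 0.22 in WT (SD, n = 4 each). It fell by 1.73 ± 0.15 in R6/2 with a limma adjusted p of 0.00621, and it passed under all 16 alternatives, while its other probe was not called at -0.64. Rps6ka4 (MSK2), a nuclear kinase activated by ERK and p38, averaged 1.28 ± 0.14 in R6/2 and 1.90 ± 0.16 in WT (SD, n = 4 each). It fell by 0.62 ± 0.11 in R6/2 with a limma adjusted p of 0.0415, and that call was lost whenever 1 array was left out (adjusted p of 0.0631 to 0.1 in limma).

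In the JNK and p38 cascades 0 of 28 tested genes passed in limma, with 7 at an unadjusted p under 0.05 (4 lower and 3 higher) and a median of -0.03 (-0.09 without WT 3). The p38 kinase genes Mapk12 and Mapk11 had the smallest p, with differences of -0.50 ± 0.12 and -0.55 ± 0.14 (limma adjusted p of 0.0801 and 0.106). In the FGF and EGF receptors and ligands 0 of 22 passed in limma, with 4 at an unadjusted p under 0.05 (3 lower and 1 higher) and a median of -0.10 (-0.15 without WT 3, where 1 gene was called). Over all tested genes 18.9% had such an unadjusted p in limma. The EGF-family ligand gene Hbegf differed by -0.43 ± 0.12 and the receptor gene Erbb2 by -0.25 ± 0.09 (limma adjusted p of 0.132 and 0.193). Of the 31 tested ERK-induced genes 0 passed in limma, with 6 lower and 1 higher at an unadjusted p under 0.05, and the median was -0.18. That median was -0.05 without WT 3, where 1 gene was called, and -0.07 without R6/2 4, and with array weights it was -0.05. With the replicate number as a block the count called was 1. The transcription factor genes Egr3 and Klf10 differed by -0.59 ± 0.14 and -0.55 ± 0.14 (limma adjusted p of 0.0874 and 0.0907). The Egr3 signal was dim, 15.4 to 20.6 units in R6/2 and 22.1 to 30.5 in WT, though well above background on all arrays. With the normexp background correction its difference was -0.23, against -0.52 for Klf10.

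**Figure D4:**
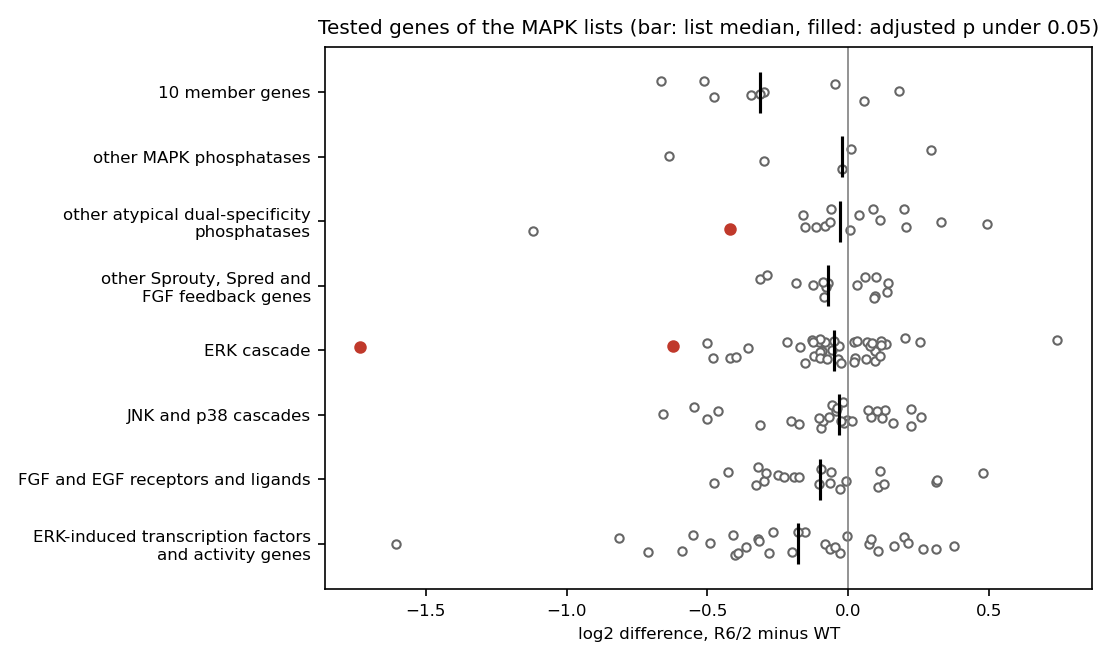
Difference of every tested gene of the members and the 7 MAPK lists, R6/2 minus WT on the log2 scale, with 1 point per gene, a bar at each list's median and filled points at an adjusted p under 0.05 (limma). The filled points are Dusp18, Ptpn7 and Rps6ka4, and the member median lies at -0.31.

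Of the cell type marker lists, only that of striatal projection neurons held calls by the brightest probe of each gene. Of 15 markers of striatal projection neurons, all above background and tested, 8 were called and all 8 were lower in R6/2, with a median difference of -0.73. Their summed scaled signal was 474 to 643 in R6/2 and 900 to 1040 in WT. Penk, the enkephalin precursor, fell by 1.11 ± 0.11, Arpp21 fell by 0.90 ± 0.10, Scn4b fell by 1.23 ± 0.15 and Pde10a fell by 0.99 ± 0.14 in R6/2 (limma adjusted p of 0.0102, 0.0104, 0.0137 and 0.0246). With the replicate number as a block the adjusted p of Pde10a was 0.0649 in limma, and its call was also lost without R6/2 2, R6/2 3, WT 1, WT 2 or WT 4. In bulk tissue, fewer cells of a type and less RNA per cell cannot be told apart. Within the genotypes, the deviations of the 9 members correlated with the mean of these markers at r = 0.09 (Dusp14) to 0.74 (Spred1) over 8 arrays, with Dusp4 at 0.26 and Dusp6 at 0.41.

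Of 10 interneuron markers 0 passed in limma, 8 were lower at an unadjusted p under 0.05, and their summed signal was 67.3 to 74.5 in R6/2 and 89.0 to 106 in WT. Npy and Nos1 had the smallest p, with differences of -0.59 ± 0.14 and -0.60 ± 0.18. Of 6 blood markers 0 passed in limma and 3 were higher at an unadjusted p under 0.05, and their summed signal was 68.9 to 114 in R6/2 and 53.8 to 68.7 in WT. Hba-a1 and Hbb-bt, which encode haemoglobin chains, differed by 0.56 ± 0.12 and 0.57 ± 0.23. By the brightest probe of each gene, the other marker lists held 0 calls in limma, with at most 2 markers of a list at an unadjusted p under 0.05. Their median differences were -0.25 for cortical neurons (Slc17a7 -0.63, Cux2 -0.24), -0.07 for astrocytes (Slc1a2 -0.32, Gfap 0.34) and 0.07 for the oligodendrocyte lineage (Mobp -0.45, Olig2 0.22). The 3 probes of Gfap, the astrocytic intermediate filament gene, disagreed in size: beside the 0.34 ± 0.11 of the brightest (limma adjusted p = 0.168), the others differed by 1.20 ± 0.21, which was called (limma adjusted p = 0.043), and by 2.33 ± 0.47, which was not (limma adjusted p = 0.0583). In these lists no other gene had a called probe. For microglia the median was -0.09 (Itgam -0.28, C1qb -0.60, or -0.34 without WT 3), for vessels -0.08 (Rgs5 -0.22, Cldn5 -0.41, or -0.18 without WT 3) and for choroid plexus and ependyma -0.07 (Dnah5 0.54, Tmem212 0.38). Of the 10 choroid plexus and ependyma markers, 6 were lower and 4 higher in R6/2. Their summed signal varied widely within a genotype, 51.7 to 193 in R6/2 and 59 to 247 in WT. The mean of the cortical markers, each centred over the 8 arrays, ran from -0.64 to 0.31 in R6/2 and from -0.05 to 0.33 in WT. The part of any of these cell types in the member differences was not tested.

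**Figure D5:**
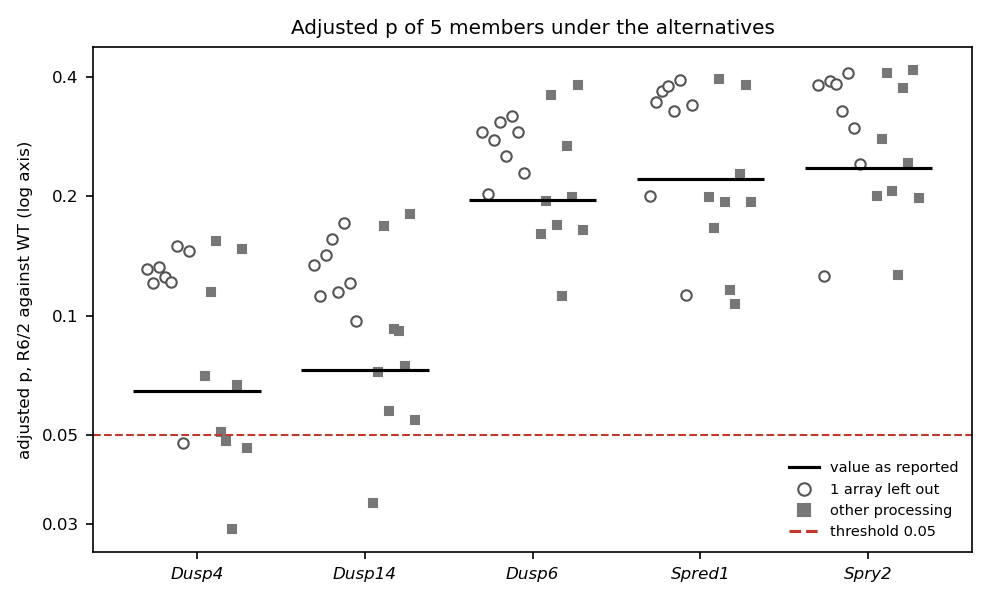
Adjusted p of the 5 members with an unadjusted p under 0.05 (log axis), as reported (bar), with 1 array left out (open circles) and under the other processing alternatives (squares); the dashed line is the threshold of 0.05. Dusp4 lies under the line in 4 alternatives and Dusp14 in 1, and Dusp6, Spred1 and Spry2 in 0.

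Over the 17 alternatives, which are limma fits apart from the authors' own test, the adjusted p of Dusp4 ranged from 0.0290 to 0.154 and that of Dusp14 from 0.0338 to 0.181, with differences from -0.58 to -0.24 and from -0.75 to -0.55. Those of Dusp6 ranged from -0.58 to -0.33, of Spred1 from -0.40 to -0.24 and of Spry2 from -0.46 to -0.24, none of them called.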

How the data were processed

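Each of the 8 striatal RNA samples was labelled with Cy3 and hybridised to its own 1-colour Agilent array. Scanner output came from Agilent Feature Extraction (version 10.7.3.1), per the file headers. The deposited intensity values, unscaled between arrays, are the authors' processed signal and, for an alternative, the mean spot and local background intensity. The authors' deposited table holds log2 values (processed signal minus a constant per array, as seen by comparing it with the scanner values; column medians -3.48 to -3.27, direction of its fold R6/2 relative to WT), p-values of an unpaired t-test with Benjamini-Hochberg correction per the file headers, and fold ratios without sign.

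Here each array's processed signals were divided by their 75th percentile (non-control spots) and put on the log2 scale, without spots marked as outliers. A probe was tested when well above background on at least 4 of 8 arrays (35131 of 55681 probes), in limma (3.58.1, lmFit with eBayes; R 4.3.3), with Benjamini-Hochberg adjustment over all tested probes and a threshold of 0.05. A gene is represented by its brightest tested probe. Of the probes, 26762 took their name from the RefSeq gene table by accession and 5056 by gene number, 2289 kept the scanner file's symbol and 21574 had none. Tested on simulated data for this comparison (35127 probes), the procedure found 39.3% of 1.5-fold changes, 73.1% at 2-fold and 81.6% at 3-fold. Of its 139 calls there, 6 were false. Only 61, 52 and 87 probes were changed by these folds, and the share found also depends on how many probes change. The simulated noise was independent between probes and arrays and equally wide on every array, unlike these data, so the shares may differ here.

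Samples were grouped by the labelled genotype. The replicate number in the titles is the array's column on the slide. Arrays of the same number deviated together (r = 0.22, 0.18, 0.36 and 0.13). The labels state no pairing, and a pairing of samples and the slide column cannot be told apart. The main fit holds genotype alone, and blocked values are given where they change a call. The members and lists were chosen with earlier results of these data known. The text names every member probe; from each list the called genes (at most 4, by p), or else the first 2 by p; and the 3 genes whose deviations correlate best with each of the 3 members of smallest p. Alternatives were background correction, normalization, filter, block, array weights, the authors' values and test, choice of probe and leaving out each array.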

Additional observations from a re-analysis of the deposited data

Results flagged for a closer look

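In 6 of 92 groups of 4 arrays (6.52%), 1 array stood further from the rest than Dixon's 95% critical value for the gap over the range, where chance gives about 1 group in 20. The members gave the next values, all in log2 scaled signal. Spry1 was -0.19 on R6/2 4, against 0.15 to 0.21 on the other R6/2 arrays. The second Spred1 probe was 1.31 on WT 3, against 1.71 to 1.73 on the other WT arrays. The third Spred1 probe was -3.45 on WT 1, against -2.96 to -2.93 on the other WT arrays. Among the markers, Scn4b was 4.67 on R6/2 4 (5.22 to 5.27 on the other R6/2 arrays), Cux2 was 0.11 on R6/2 3 (0.30 to 0.32) and Gfap was 1.45 on R6/2 3 (1.07 to 1.12).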

How the results depend on the processing

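The member median kept its sign under every alternative run, from -0.42 to -0.24. The count of genes called over the array was 347 as reported; it was 658 with normexp, 83 with no filter on dim probes, 185 with the replicate block, 708 with array weights, 100 with the authors' t-test, and 79 to 331 without 1 array. Among the members the count was 1 with normexp (Dusp14), 1 with the replicate block and 1 with array weights (Dusp4 in both), and 0 to 1 without 1 array, the 1 being Dusp4 without WT 3. Dusp4 also passed when probes were averaged per gene (adjusted p = 0.0465, fewer tests); with array weights its adjusted p was 0.0290 in limma. The difference of Spry1 turned sign with array weights (0.0331) and without R6/2 4 (0.0469), and ranged from -0.0989 to 0.0469 without 1 array. The ERK-induced list had 1 call with normexp, 1 with the replicate block and 1 with array weights, and 0 to 1 without 1 array. The atypical phosphatases had 0 with no filter and 0 with the replicate block, and 0 to 1 without 1 array. The ERK cascade had 1 with no filter, 1 with the authors' t-test and 5 with array weights, and 1 to 3 without 1 array, the 3 without WT 3. The other MAPK phosphatases had 1 call (Dusp16) with array weights and 1 with the authors' t-test, and the FGF and EGF list 0 to 1 without 1 array; the 1 in this list, in the ERK-induced list and in the atypical phosphatases came without WT 3. The replicate block changed no other call of a named gene than those of Dusp4, Dusp18 and Pde10a. Of the calls, 75.5% were lower in R6/2 as reported, 86.7% with no filter and 59.0% with the authors' t-test. The cause of these changes was not tested. Slide as a block was not run, since all arrays share 1 slide. The signals of Dusp4, Spry4 and the third Spred1 probe are near background, which limits them. The same holds for Egr3, Erbb2, Nos1 and Dnah5 among the listed genes.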
